A study of Mus musculus with 4 samples.

Results

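The BMP, TGF-beta and activin pathway was followed through 44 of its genes, taken by symbol from the 24421 genes counted in the Illumina TruSeq libraries of mouse R1 embryonic stem cells (ESCs). R1 is an established mouse ESC line, and a single line was used. The 44 genes were 8 BMP ligands, 3 TGF-beta ligands, 3 activin and inhibin subunits, 6 type I receptors, 4 type II receptors, 1 co-receptor, 5 antagonists, 8 Smads and 6 target genes. The Undiff state had 2 libraries and the Day4 state had 2 libraries. The Day4 cells were embryoid bodies, which are floating clusters of ESCs, grown for 4 days without leukaemia inhibitory factor (LIF) and then for 4 days with 2 µM retinoic acid (RA). A protocol field of the labels gives the RA concentration with a unit of mM, and the paper and the design text give µM. Undiff is described as maintained ESCs with LIF in the methods of the paper, and as embryoid bodies in the labels. The labels name no genetic change in either state. RA, embryoid body culture and the absence of LIF cannot be told apart in this comparison. The methods state that replicates were grown and treated separately.

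In this pathway, a dimeric ligand binds a pair of type II and a pair of type I receptor kinases, and the type I receptor phosphorylates receptor-regulated Smads (R-Smads). Smad1, Smad5 and Smad9 transmit BMP signals, Smad2 and Smad3 transmit TGF-beta and activin signals, and Smad4 joins both kinds to reach the nucleus. In mouse ESCs grown with serum, BMP4 and the Id proteins it induces are known to act together with LIF in keeping the cells undifferentiated, and Nodal and activin signals guide the choice of germ layer once they differentiate.

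Total counts per library ran from 32099074 to 47730944, and 3 counts in a library corresponded to 0.0629 to 0.0935 CPM, which are counts scaled to the library total. A count of 3 per library was taken as the floor. A gene was called differentially expressed (DEG) where edgeR's quasi-likelihood test gave it an adjusted p of 0.05 or less, its log2 fold change was 1 or more in size and its normalized counts averaged 5 or more. Normalized counts are counts divided by the relative effective size of their library, log2 fold changes are Day4 against Undiff, each ± is a standard error (SE) unless it is named as a standard deviation (SD), and n = 2 libraries per state throughout. The 2 states can be placed in so few orders that an exact permutation test of a single gene cannot give a two-sided p below 0.333, and every adjusted p below is from the edgeR fit over 19891 genes.

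Most of the pathway was higher in Day4. Of the 44 genes, 23 were DEGs higher in Day4, 4 were DEGs lower in Day4 and 17 were not DEGs. Over all genes tested, 42.8% were DEGs, with 22.2% higher and 20.6% lower, and 51.7% of the 16472 genes whose normalized counts averaged 5 or more were DEGs. Of the 44 genes, 43 had such an average. The median log2 fold change of the 44 genes was 1.45, beside -0.03 over all genes tested and 0.03 over those 16472 genes. The adjusted p was at most 0.05 at any fold for 39 of the 44 genes, beside 75.6% of all genes and 14309 of the 16472 genes at the minimum count. Bmp3, Inhba, Acvr1b, Acvr2b and Fst were the 5 that did not pass. The ranges of both states did not overlap for any of the 44 genes, beside 85.4% of all genes without an overlap. The genes that rose furthest from measurable Undiff levels were the ligands Tgfb3 and Tgfb2, the Smads Smad9 and Smad6 and the target Id3, and the genes that fell were Bmp8b, Bmp8a, Inhbb and Grem1.

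**Figure D1:**
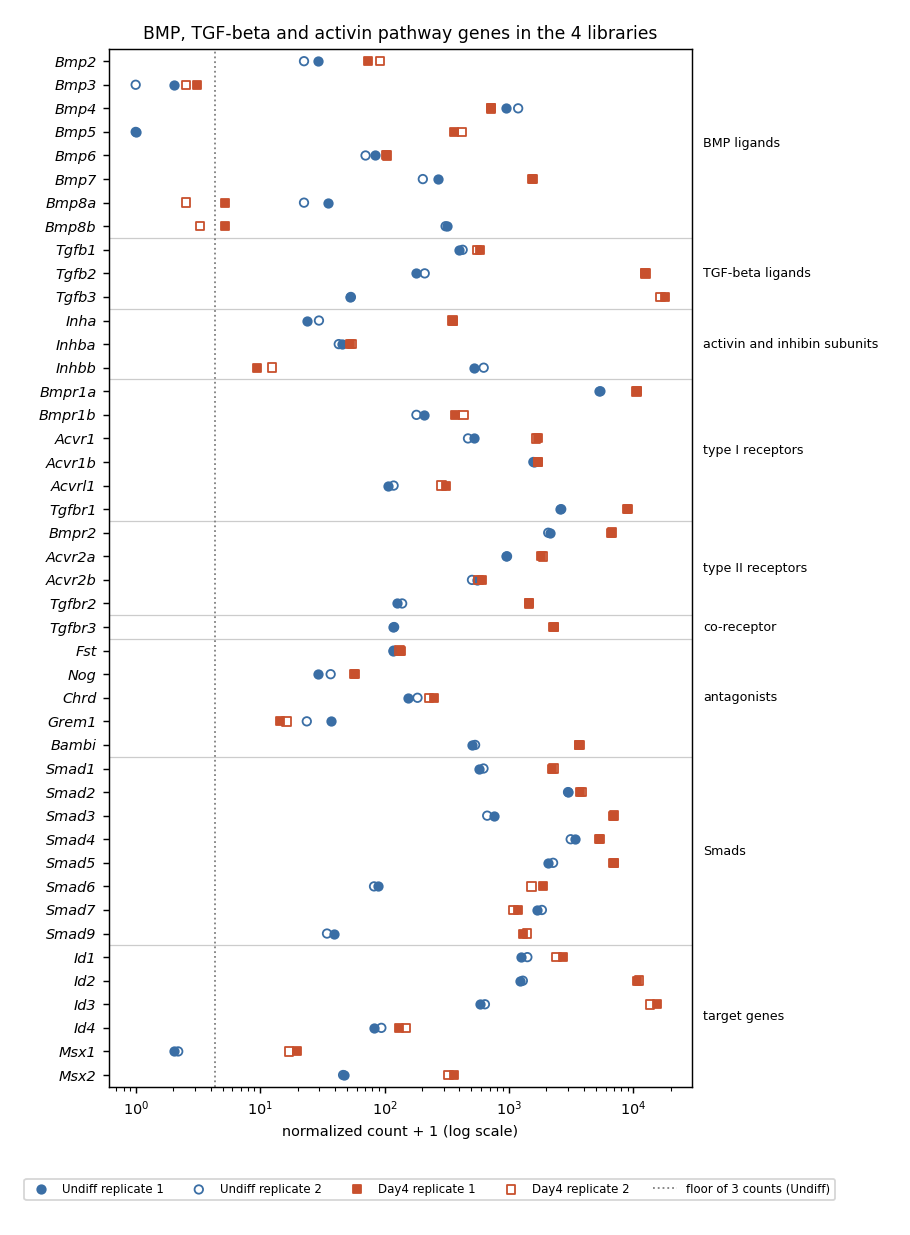
Normalized count plus 1 (log axis) of each of the 44 pathway genes in the 2 Undiff libraries (circles) and the 2 Day4 libraries (squares), in order of role, with a dotted line at the floor of 3 counts. Tgfb2 and Tgfb3 pass from 209.4 or fewer in Undiff to 12369 or more in Day4, Inhbb and Bmp8b pass the other way, and replicates lie close together for all but the lowest genes.

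Markers of cell types differed between the states as well. All 12 markers of pluripotent cells fell, and their summed level went from 5090 and 5110 CPM in Undiff to 34.6 and 28.2 CPM in Day4, so that Undiff held the markers of its labelled cell type. Markers of extraembryonic endoderm rose for 9 of 11 genes, from a sum of 61.8 and 69.2 CPM to 674 and 665 CPM, while Amn and Cubn fell and Afp was at the floor in Undiff. Markers of mesenchyme or fibroblasts rose for 9 of 10 genes, from 79.1 and 72.2 CPM to 2040 and 1870 CPM, while Thy1 fell and Lum was at the floor in Undiff. Endothelial markers rose for 4 of 6 genes and fell for 2, Pecam1 and Tek, with sums of 167 and 164 CPM in Undiff and 313 and 317 CPM in Day4, and Emcn was at the floor in Undiff. Muscle markers rose for 3 of 6 genes and fell for 1, Myh6, with sums of 83.8 and 83 CPM in Undiff and 142 and 181 CPM in Day4. Neural markers rose for 2 of 7 genes, Nes and Dcx, and fell for 4, with sums of 325 and 331 CPM in Undiff and 173 and 184 CPM in Day4, and Dcx was at the floor in Undiff. Trophoblast markers rose for 1 of 7 genes, Krt7, and fell for 2, with sums of 224 and 220 CPM in Undiff and 207 and 210 CPM in Day4. Blood markers rose for 2 of 4 genes, from 1.75 and 1.84 CPM to 79.9 and 68.7 CPM, with Hba-x at the floor in Undiff and Ptprc at the floor in Day4. These lists differed between the same libraries as the pathway genes, and their part in the results below was not tested. In bulk RNA, fewer cells of a type and less RNA per cell cannot be told apart.

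Among the ligands, the TGF-beta genes showed the steepest rise. Tgfb3 (ENSMUSG00000021253.7), on chromosome 12 from 86056745 to 86079041 on the minus strand of GRCm38 (the assembly of mm10), encodes a secreted ligand known for its part in palate fusion. Its normalized counts were 52.1 and 52.7 in Undiff and 18002 and 16526 in Day4. This was a 329-fold rise, at a log2 fold change of 8.36 ± 0.09 (adjusted p = 2.4e-16). Of the exon bases of Tgfb3, 12.4% overlap Gm37804 and Gm48008 on the opposite strand, which were not among the counted genes. The counting was not stated to use the strand, so that reads in that part cannot be told apart. Tgfb2, a secreted ligand known for roles in heart and eye development, is on chromosome 1 from 186622792 to 186705989 on the minus strand. Its normalized counts were 179.2 and 209.4 in Undiff and 12369 and 12485 in Day4, a log2 fold change of 6.00 ± 0.07 (adjusted p = 4.7e-16). Both genes were low in each Undiff library and among the higher genes of the pathway in each Day4 library. Tgfb1, the form best known from platelets and immune regulation, had 398.1 and 423.6 in Undiff and 587.1 and 555.1 in Day4. Its log2 fold change of 0.47 ± 0.08 (adjusted p = 1.3e-04) was below the fold threshold, so that Tgfb1 was not a DEG.

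Put on a scale per length, the 3 TGF-beta genes changed places. Levels per length are FPKM, computed here as counts divided by the summed exon length of the gene in kilobases and by the effective size of the library. The summed FPKM of Tgfb1, Tgfb2 and Tgfb3 was 3.35 and 3.63 in Undiff and 202 and 191 in Day4. Tgfb1 made up 63% and 61.9% of this sum in Undiff and 1.54% in each Day4 library. Tgfb3 made up 12.3% and 11.5% in Undiff and 70.3% and 68.3% in Day4, and the share of Tgfb2 was 24.7% to 26.6% in Undiff and 28.2% to 30.1% in Day4. So Tgfb1 was the highest of the 3 per length in Undiff, Tgfb3 was the highest in Day4, and each difference in share was wider than the spread between replicates for Tgfb1 and Tgfb3.

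The BMP ligands moved in both directions, with 3 DEGs higher and 2 lower of 8 genes and a median log2 fold change of 0.95, which includes Bmp3 with 2 or fewer counts in every library. Bmp7, known for roles in kidney and eye development, had normalized counts of 265.7 and 202.2 in Undiff and 1531 and 1562 in Day4. The rise was 2.71 ± 0.09 on the log2 scale (adjusted p = 9.2e-12). Bmp5, a ligand related to Bmp7 and known for its part in skeletal shape, had no count in either Undiff library and 362.5 and 418.4 normalized counts in Day4. Set against the floor of 3 counts per library, Bmp5 was at least 116-fold higher in Day4 (adjusted p = 1.1e-10). Of its exon bases, 46.7% overlap Gm26903 on the opposite strand, which was not among the counted genes, and the counting was not stated to use the strand for these libraries, so that reads of both cannot be told apart. Bmp2, a ligand known for roles in heart and bone formation, had 28.1 and 21.5 in Undiff and 72.1 and 91.4 in Day4, a rise of 1.72 ± 0.25 (adjusted p = 3.2e-05).

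Bmp8b, known for its part in germ cell formation, had 315.8 and 308.7 normalized counts in Undiff and 4.18 and 2.30 in Day4. Its log2 fold change was -6.60 ± 0.25 (adjusted p = 2.4e-11), from Day4 counts of 4 and 3. Bmp8a, its neighbour on chromosome 4, had 34.4 and 21.5 in Undiff and 4.18 and 1.54 in Day4, a log2 fold change of -3.36 ± 0.55 (adjusted p = 8.6e-05). Bmp8a and Bmp8b are related genes, and reads aligning to several places were left out. Any reads shared by both are missing, so the split between the 2 genes is uncertain to that extent. How alike their sequences are was not measured here. Exons of Ppie and Gm17244 on the opposite strand together overlap 12.2% of those of Bmp8b.

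Bmp4, the BMP that ESC culture is best known for, was the most abundant BMP ligand per length in Undiff and was not a DEG. Its normalized counts were 954.5 and 1185 in Undiff and 710.3 and 713.3 in Day4. Both Day4 values lay below both Undiff values, with a log2 fold change of -0.58 ± 0.09 (adjusted p = 4.9e-05). Bmp6, known for its part in iron balance, had 83.4 and 69.4 in Undiff and 102.4 and 103.6 in Day4, a log2 fold change of 0.42 ± 0.17 (adjusted p = 0.039). Bmp3 had counts of 1 and 0 in Undiff and 2 and 2 in Day4, which is at or under the floor in both states. The summed FPKM of the 8 BMP ligands was 16.5 and 18.4 in Undiff and 22.3 and 23.1 in Day4. Bmp4 went from 68.9% and 76.4% of this sum to 37.8% and 36.7%, and Bmp7 went from 10.7% and 7.3% to 45.5% and 45%. Bmp8b held 13.2% and 11.5% in Undiff and Bmp5 held 10.8% and 12% in Day4.

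Activins are dimers of beta subunits, and inhibin pairs a beta subunit with the alpha subunit Inha and opposes activin. The 3 subunit genes split into 1 that rose, 1 that fell and 1 that did not pass. Inhbb (ENSMUSG00000037035.5), the beta B subunit, on chromosome 1 from 119415465 to 119422248 on the minus strand, had 527.3 and 625.8 normalized counts in Undiff and 8.36 and 11.5 in Day4. It was 55.8-fold lower in Day4, a log2 fold change of -5.80 ± 0.20 (adjusted p = 8.7e-12). Inha had 22.9 and 28.7 in Undiff and 353.1 and 351.6 in Day4, a rise of 3.77 ± 0.16 (adjusted p = 1.0e-10). Inhba, the beta A subunit, had 44.8 and 41.9 in Undiff and 52.2 and 53.7 in Day4. Its log2 fold change of 0.29 had a 95% interval from -0.20 to 0.77 (adjusted p = 0.26), and a difference within that interval was not detectable in these libraries. Per length, Inhbb made up 84.6% and 85% of the summed FPKM of the 3 subunits in Undiff and 0.787% and 1.08% in Day4, and Inha made up 10.6% and 11.2% in Undiff and 95.9% and 95.5% in Day4.

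All DEGs among the receptors were rises, but not every receptor was a DEG. For type I receptors, 4 of 6 rose and 2 were not DEGs, with a median log2 fold change of 1.24. For type II receptors, 2 of 4 rose and 2 were not DEGs, with a median of 1.31. Over all genes tested, 22.2% rose by the same thresholds, and 51.7% of genes at the minimum count were DEGs in either direction. The receptor counts were not tested against these shares. Tgfbr1, the type I receptor for TGF-beta, had 2594 and 2631 normalized counts in Undiff and 9011 and 8881 in Day4, a rise of 1.78 ± 0.04 (adjusted p = 3.7e-13). Tgfbr2, the type II receptor that binds TGF-beta first, had 124.0 and 137.6 in Undiff and 1454 and 1449 in Day4, a rise of 3.48 ± 0.09 (adjusted p = 3.7e-13). Tgfbr3 (betaglycan), the co-receptor that presents TGF-beta2 to the receptors and also binds inhibin, had 116.7 and 118.5 in Undiff and 2282 and 2280 in Day4. Its rise of 4.28 ± 0.08 on the log2 scale (adjusted p = 2.8e-14) was the largest among the 11 receptor and co-receptor genes of the list. Tgfbr1, Tgfbr2 and Tgfbr3 were DEGs in the same direction as Tgfb2 and Tgfb3.

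Bmpr2, Bmpr1a, Bmpr1b, Acvr1 and Acvrl1 are among the receptors for BMPs, and 4 of these 5 genes rose. Acvr2a, described below, also binds BMPs and was not a DEG, and neither was the type II receptor Acvr2b. Bmpr2, the main BMP type II receptor, had 2138 and 2068 in Undiff and 6634 and 6748 in Day4, a rise of 1.67 ± 0.05 (adjusted p = 1.1e-12). Bmpr1a, a BMP type I receptor needed for gastrulation, had 5292 and 5435 in Undiff and 10764 and 10607 in Day4. Its log2 fold change of 0.99 ± 0.04 (adjusted p = 6.1e-11) lay just under the threshold of 1, and the 95% interval ran from 0.90 to 1.08. Without Undiff replicate 2 it was 1.01 and passed. Bmpr1b, a BMP type I receptor known from limb cartilage, had 207.4 and 179.5 in Undiff and 370.8 and 430.7 in Day4, a rise of 1.06 ± 0.12 (adjusted p = 1.8e-06) that lay just over the threshold. This call was lost when Undiff replicate 2 was left out, at 0.96, or Day4 replicate 2, at 0.90. Acvr1 (ALK2), which binds BMP6 and BMP7, had 523.1 and 467.8 in Undiff and 1696 and 1648 in Day4, a rise of 1.75 ± 0.07 (adjusted p = 3.9e-11). Acvrl1 (ALK1), best known from endothelium, had 105.3 and 117.3 in Undiff and 309.2 and 287.1 in Day4, a rise of 1.42 ± 0.12 (adjusted p = 1.7e-07).

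The log2 fold changes nearest to 0 among the receptors belonged to Acvr1b and Acvr2b, which bind activin and Nodal. Acvr1b (ALK4), the type I receptor of the pair, had 1589 and 1570 in Undiff and 1714 and 1707 in Day4, a log2 fold change of 0.11 with a 95% interval from 0.00 to 0.23 (adjusted p = 0.065). Acvr2b, the type II receptor, had 549.2 and 503.7 in Undiff and 605.9 and 567.4 in Day4, a log2 fold change of 0.15 with an interval from -0.02 to 0.32 (adjusted p = 0.11). A change of 2-fold lay outside both intervals. Acvr2a, which binds activins and BMPs, had 953.5 and 964.4 in Undiff and 1823 and 1873 in Day4, and its log2 fold change of 0.95 ± 0.06 (adjusted p = 2.9e-09) was under the threshold. Exons of Orc4 overlap 7.84% of those of Acvr2a, and genes on the opposite strand overlap 3.82% to 5.74% of the exon bases of Bmp4, Bmp6, Bmpr1a, Chrd and Id4.

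On the scale per length, Bmpr1a was the highest type I receptor in both states, with 47.4% and 48.4% of the summed FPKM of the 6 genes in Undiff and 42.9% in each Day4 library. Tgfbr1 went from 22.6% and 22.8% to 34.9% in each Day4 library, and Acvr1b went from 20.5% and 20.1% to 9.83% and 9.91%. Among the type II receptors, Acvr2a was the highest in Undiff, with 38% and 39.5%, and Bmpr2 was the highest in Day4, with 36.1% and 36.6%. Tgfbr2 went from 3.43% and 3.91% to 17.4% and 17.2%. The summed FPKM of type I receptors was 47 and 47.2 in Undiff and 105 and 104 in Day4, and that of type II receptors was 11.8 and 11.5 in Undiff and 27.3 and 27.4 in Day4.

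**Figure D2:**
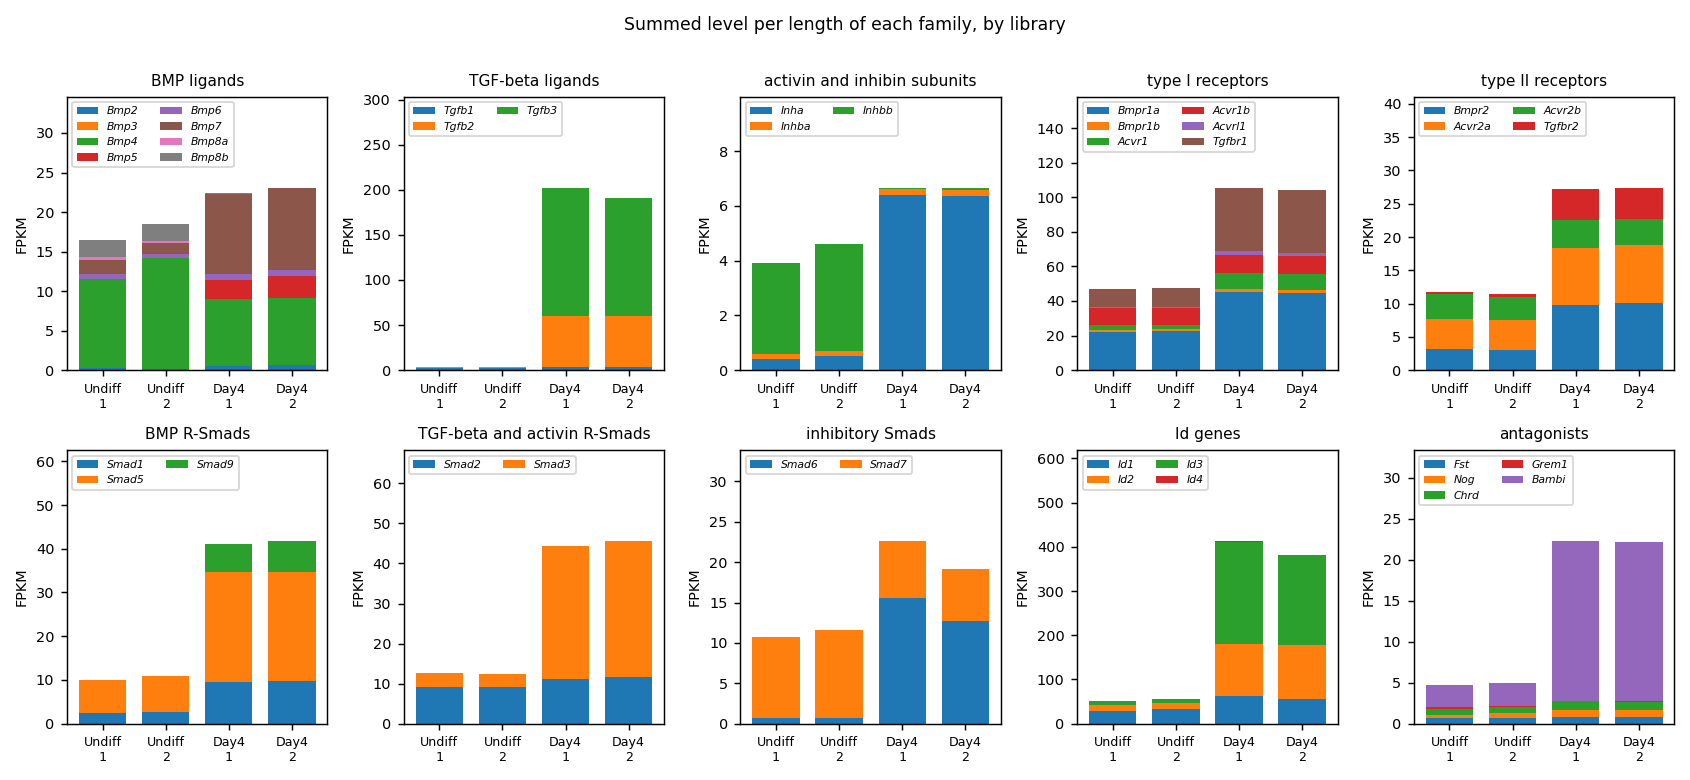
Summed FPKM (vertical axes, each panel with its own scale) of 10 families of the pathway in each of the 4 libraries, with each bar divided by gene. TGF-beta ligands go from 3.35 and 3.63 in Undiff to 202 and 191 in Day4, and the leading gene changes from Tgfb1 to Tgfb3, Inhbb to Inha, Smad2 to Smad3, Smad7 to Smad6 and Id1 to Id3.

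Antagonists of the pathway were divided. Bambi, a membrane pseudoreceptor without a kinase domain that dampens signalling and is itself a BMP target, had 503.3 and 533.6 normalized counts in Undiff and 3685 and 3682 in Day4. The rise was 2.83 ± 0.06 on the log2 scale (adjusted p = 7.6e-14). Grem1 (gremlin), a secreted BMP antagonist, had 36.5 and 22.7 in Undiff and 13.6 and 15.4 in Day4, a log2 fold change of -1.04 ± 0.36 (adjusted p = 0.019). The Undiff libraries were both higher, but their spread was wide, and the call was lost without Undiff replicate 1 (-0.63, adjusted p = 0.24), without Day4 replicate 1 (-0.96, adjusted p = 0.058) and in 7 of 12 alternatives in all. The other secreted antagonists, which bind BMPs or activin outside the cell, were not DEGs. Nog (noggin) had 28.1 and 35.9 in Undiff and 56.4 and 56.05 in Day4, a log2 fold change of 0.82 ± 0.24 (adjusted p = 0.0079). Chrd (chordin) had 154.2 and 183.1 in Undiff and 247.6 and 226.5 in Day4, a log2 fold change of 0.49 ± 0.13 (adjusted p = 0.003). Fst (follistatin), which binds activin, had 115.7 and 117.3 in Undiff and 135.8 and 130.5 in Day4, a log2 fold change of 0.19 with a 95% interval from -0.12 to 0.50 (adjusted p = 0.24).

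The Smads rose for 5 of 8 genes and none fell by the DEG thresholds. All 8 had an adjusted p of at most 0.05, as did 75.6% of all genes tested. Among the R-Smads of the BMP branch, Smad9 (Smad8) had 38.6 and 33.5 normalized counts in Undiff and 1307 and 1397 in Day4, a 37.3-fold rise at a log2 fold change of 5.22 ± 0.12 (adjusted p = 1.5e-13). Smad1 had 578.4 and 623.4 in Undiff and 2236 and 2283 in Day4, a rise of 1.91 ± 0.06 (adjusted p = 5.3e-12). Smad5 had 2065 and 2263 in Undiff and 6971 and 6944 in Day4, a rise of 1.69 ± 0.05 (adjusted p = 2.8e-12). Smad5 stayed the highest of the 3 per length, with 73.7% and 74.2% of their summed FPKM in Undiff and 61% and 60% in Day4, while Smad9 went from 1.9% and 1.52% to 15.8% and 16.7%.

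The R-Smads of the TGF-beta and activin branch exchanged rank. Smad3 had 757.6 and 667.7 in Undiff and 6872 and 7011 in Day4, a rise of 3.28 ± 0.06 (adjusted p = 2.6e-14). Smad2 had 2997 and 2985 in Undiff and 3699 and 3852 in Day4, and its log2 fold change of 0.34 ± 0.05 (adjusted p = 1.9e-05) was far under the threshold of 1. Per length, Smad2 held 71.4% and 73.8% of the summed FPKM of both in Undiff, and Smad3 held 74.6% and 74.3% of it in Day4. Smad4, the common partner of both branches, had 3367 and 3135 in Undiff and 5309 and 5397 in Day4, a log2 fold change of 0.72 ± 0.05 (adjusted p = 1.0e-08) that was not a DEG.

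The inhibitory Smads moved apart. Smad6, which mainly blocks BMP receptors, had 87.5 and 81.4 in Undiff and 1870 and 1523 in Day4, a 19.9-fold rise at a log2 fold change of 4.32 ± 0.13 (adjusted p = 3.4e-12). Smad7, which blocks receptors of both branches, had 1685 and 1839 in Undiff and 1182 and 1084 in Day4. Its log2 fold change of -0.64 ± 0.07 (adjusted p = 8.5e-07) did not reach the threshold, and no Day4 value overlapped the Undiff values. Per length, Smad7 made up 93.2% and 94.1% of the summed FPKM of both in Undiff, and Smad6 made up 69% and 66.5% of it in Day4.

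The target genes rose for 4 of 6, with a median log2 fold change of 3. The Id genes encode helix-loop-helix proteins without a DNA-binding region that hold back differentiation factors, and they are textbook targets of BMP Smads. Id3 (ENSMUSG00000007872.3), on chromosome 4 from 136143497 to 136145755 on the plus strand, had 587.7 and 640.1 normalized counts in Undiff and 15487 and 13667 in Day4. The 23.8-fold rise corresponded to a log2 fold change of 4.57 ± 0.07 (adjusted p = 7.5e-15). Id2 had 1235 and 1292 in Undiff and 10720 and 11079 in Day4, a rise of 3.11 ± 0.05 (adjusted p = 8.0e-15). Id1 had 1238 and 1405 in Undiff and 2741 and 2413 in Day4, and its log2 fold change of 0.96 ± 0.07 (adjusted p = 4.0e-08) was under the threshold. It reached 1.05 without Undiff replicate 2 and 1.02 without Day4 replicate 2. Id4 had 81.3 and 93.3 in Undiff and 130.6 and 147.4 in Day4, a log2 fold change of 0.69 ± 0.16 (adjusted p = 0.0014). The summed FPKM of the 4 Id genes was 51.4 and 56.7 in Undiff and 412 and 382 in Day4. Id1 was the highest of them in Undiff, with 55.5% and 57% of the sum, and Id3 was the highest in Day4, with 56% and 53.4%.

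The homeobox genes Msx1 and Msx2, known as BMP targets in limb, tooth and skull, both rose. Msx2 had 45.9 and 45.5 normalized counts in Undiff and 360.4 and 324.8 in Day4, a rise of 2.90 ± 0.15 on the log2 scale (adjusted p = 6.4e-10). Msx1 had 1 count in each Undiff library and counts of 18 and 21 in Day4. The ratio of its summed counts, Day4 against Undiff and scaled for depth, was 15.5 with a 95% interval from 4.01 to 132 that covers counting error only (adjusted p = 1.1e-04).

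**Figure D3:**
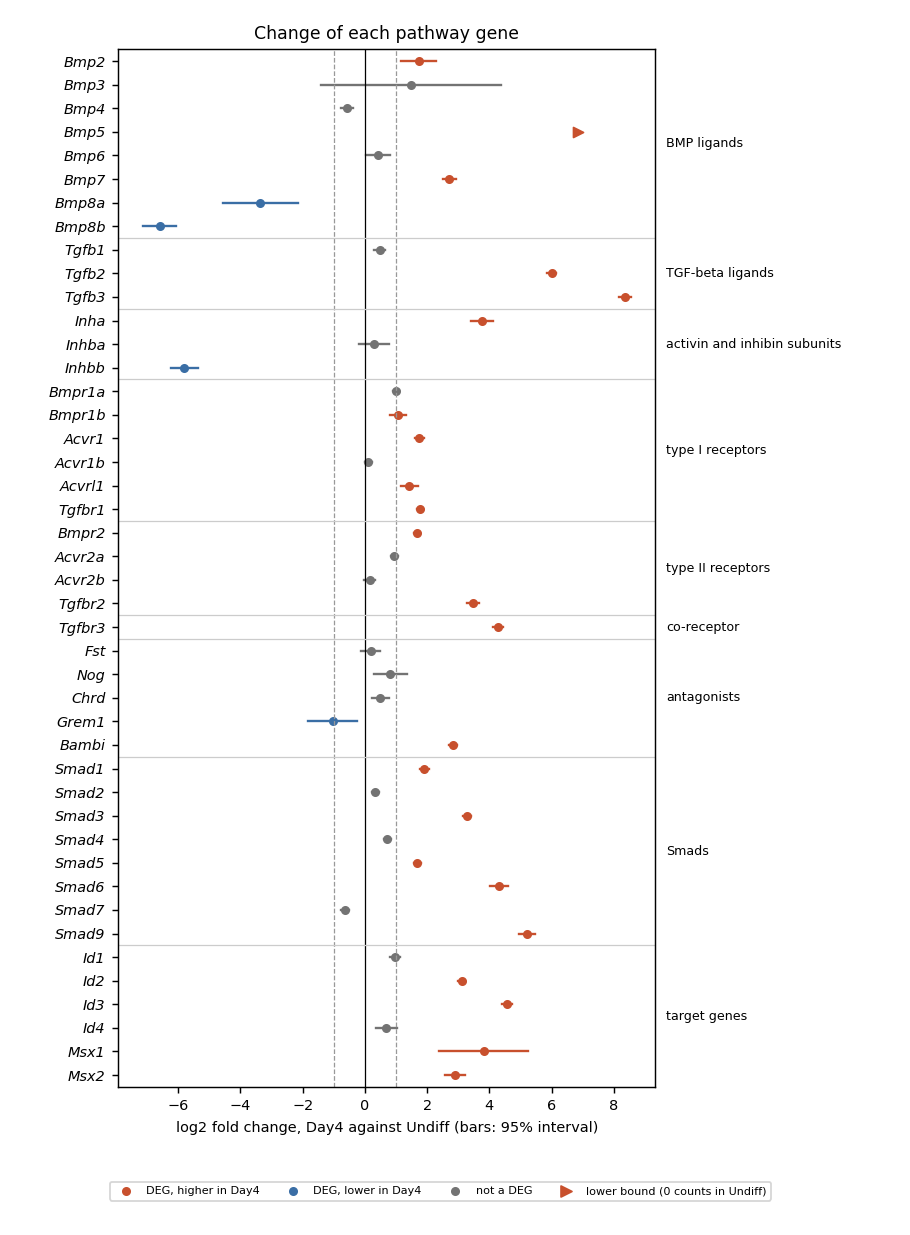
Log2 fold change, Day4 against Undiff, of the 44 pathway genes from the edgeR fit, with 95% intervals as bars, dashed lines at -1 and 1, DEGs in colour and the lower bound of Bmp5 as a triangle. Rises reach 8.36 for Tgfb3, falls reach -6.60 for Bmp8b, and Bmpr1a, Acvr2a and Id1 lie just under the threshold. The point of Msx1 rests on 1 count in each Undiff library.

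Smad6, Smad9, Id2 and Id3, which are Smads or BMP targets, were picked after their rise was seen, and other Smads and target genes that rose are not printed. The stretch around their start sites was read for 2 strings that Smads are known to bind. Any part of these strings in the rise was not tested. RefSeq promoter windows of 300 bases on GRCm38.p6, from 250 bases before to 50 bases after the start, were matched by symbol for 31 of the 44 genes. On both strands, 2 palindromic motifs chosen after the data were seen were searched, GTCTAGAC (the 8-base Smad-binding element) and GGCGCC (a GC-rich element bound by BMP Smads), of which neither contains the other. The windows are printed 5′ to 3′ on the strand of the gene, in lower case with motif matches in capitals. The window of Smad6 is chr9:64022010-64022309 on the minus strand and that of Smad9 is chr3:54755332-54755631 on the plus strand. That of Id2 is chr12:25096043-25096342 on the minus strand and that of Id3 is chr4:136143572-136143871 on the plus strand. The windows of Id2 and Id3 lie within the GENCODE spans of these genes, 25093799 to 25097140 and 136143497 to 136145755. Matches and distances for them therefore depend on the RefSeq start.
Smad6: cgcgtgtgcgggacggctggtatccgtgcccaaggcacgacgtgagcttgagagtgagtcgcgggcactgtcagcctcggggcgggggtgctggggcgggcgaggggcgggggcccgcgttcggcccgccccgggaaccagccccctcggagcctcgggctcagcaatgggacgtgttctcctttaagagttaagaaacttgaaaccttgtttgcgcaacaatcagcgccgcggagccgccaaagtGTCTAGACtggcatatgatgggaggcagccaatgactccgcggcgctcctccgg
Smad9: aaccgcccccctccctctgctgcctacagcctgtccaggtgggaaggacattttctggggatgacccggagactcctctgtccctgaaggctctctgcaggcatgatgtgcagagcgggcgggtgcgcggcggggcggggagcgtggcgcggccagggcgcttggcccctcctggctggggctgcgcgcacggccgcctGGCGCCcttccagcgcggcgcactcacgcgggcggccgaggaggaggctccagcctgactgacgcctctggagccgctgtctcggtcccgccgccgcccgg
Id2: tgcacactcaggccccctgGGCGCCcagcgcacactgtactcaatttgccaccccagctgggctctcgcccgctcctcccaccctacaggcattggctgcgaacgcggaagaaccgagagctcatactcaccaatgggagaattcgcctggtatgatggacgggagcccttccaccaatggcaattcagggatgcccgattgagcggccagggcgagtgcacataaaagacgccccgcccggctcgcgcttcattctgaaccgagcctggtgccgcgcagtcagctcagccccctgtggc
Id3: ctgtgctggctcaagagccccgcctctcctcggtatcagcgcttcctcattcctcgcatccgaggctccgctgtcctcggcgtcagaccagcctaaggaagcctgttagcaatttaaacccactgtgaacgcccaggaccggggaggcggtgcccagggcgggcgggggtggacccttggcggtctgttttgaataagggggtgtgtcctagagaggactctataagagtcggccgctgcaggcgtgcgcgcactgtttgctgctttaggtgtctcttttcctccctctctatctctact

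Smad6 was the 1 gene of the 31 with a GTCTAGAC match, which began 4 bases before its start, and 0.213% of all 32851 windows held that motif. GGCGCC was present in the windows of 10 of the 31 genes and in 11.9% of all windows. For both motifs the members were counted per gene, with any window sufficing, and the share over all was counted per window. These measures differ in unit, so that no excess can be read from them. Of these 10 genes, 5 rose (Bmpr2, Id2, Smad5, Smad9 and Tgfbr1), 1 fell (Grem1) and 4 were not DEGs (Acvr1b, Bmpr1a, Chrd and Id4). Of all 44 genes, which include 13 without a window, 23 rose, 4 fell and 17 were not DEGs. The calls of the 31 genes with a window were not counted apart. In Smad9 the match began 51 bases before the start and in Id2 it began 231 bases before. Neither string was found in the window of Id3. Shorter parts of the strings were not searched, so that this window is not shown to lack Smad sites. The windows of Smad6, Smad9, Id2 and Id3 had a GC content of 66.3%, 73.7%, 63.3% and 60%. A match of these letters is a description of the window, and binding was not measured.

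Beyond the 44 genes, 71 other genes of the pathway were listed, and 69 of them had a count. Of the 71, 36 were DEGs higher in Day4 and 12 were DEGs lower, beside 22.2% and 20.6% of all genes tested. The adjusted p was at most 0.05 for 62, beside 75.6% of all genes tested and 14309 of the 16472 genes at the minimum count. The median log2 fold change of the 69 tested was 1.49. Gdf1 and Mstn had no count in any library.

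The remaining ligands rose for 6 and fell for 4 of 16 genes. Gdf3, a Nodal-like ligand known from pluripotent cells, had 4207 and 4307 normalized counts in Undiff and 14.6 and 9.98 in Day4, a log2 fold change of -8.46 ± 0.11 (adjusted p = 1.2e-15). Gdf6, a BMP-like ligand known from joint and eye development, had 7.30 and 10.8 in Undiff and 2738 and 2646 in Day4, a rise of 8.22 ± 0.13 (adjusted p = 6.3e-15). Gdf2 (BMP9), a ligand of Acvrl1, had no count in either Undiff library and counts of 138 and 159 in Day4, so that it was at least 39.6-fold higher. Bmp10, a heart ligand of the same receptor, had 1 and 0 counts in Undiff and 42 and 55 in Day4, a ratio of 77.1 with a counting interval from 13.5 to 3075. Inhbc and Inhbe, activin subunits best known from liver, went the other way. Inhbc had counts of 22 and 24 in Undiff and 0 and 1 in Day4, a ratio of 57.9 in favour of Undiff (interval 9.89 to 2336), and Inhbe had 20 and 25 in Undiff and 0 and 2 in Day4, a ratio of 28.3 (interval 7.40 to 241).

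Among 7 other receptors and co-receptors, 5 rose and 1 fell. Neo1 (neogenin), the receptor of repulsive guidance molecules that act as BMP co-receptors, rose by 2.13 ± 0.04 on the log2 scale (adjusted p = 8.7e-14). Hfe2 (hemojuvelin), a BMP co-receptor of iron balance, had counts of 183 and 146 in Undiff and 0 and 1 in Day4, a ratio of 414 in favour of Undiff (interval 73.8 to 16405). Acvr1c (ALK7), a type I receptor for Nodal and activin B, had no count in Undiff and counts of 111 and 101 in Day4, at least 28.8-fold higher. Eng (endoglin), of the same list, had 1210 and 1179 normalized counts in Undiff and 664.4 and 601.9 in Day4. Its log2 fold change of -0.92 ± 0.07 (adjusted p = 3.2e-08) was below the fold threshold, so that Eng was not a DEG.

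The extracellular modulators rose for 17 and fell for 3 of 23 genes. Fstl1, a secreted follistatin-like protein, had 3696 and 3221 normalized counts in Undiff and 24189 and 22855 in Day4, a rise of 2.76 ± 0.06 (adjusted p = 1.0e-13). Ltbp4, a matrix protein that holds latent TGF-beta, had 3979 and 4664 in Undiff and 2011 and 1783 in Day4, a log2 fold change of -1.19 ± 0.08 (adjusted p = 5.2e-09). The other Ltbp genes were divided. Ltbp1 and Ltbp3 rose, with log2 fold changes of 3.89 ± 0.06 and 4.09 ± 0.09, and Ltbp2 fell, with -2.53 ± 0.32. Chrdl2, a chordin-like BMP binder, had counts of 3 and 2 in Undiff and 8 and 12 in Day4, a ratio of 3.18 with an interval from 1.16 to 10.8 (adjusted p = 0.037). The intracellular regulators had few DEGs, with 2 higher and 2 lower of 16 genes. Of the 16, 15 had an adjusted p of at most 0.05, as did 75.6% of all genes tested. Skil (SnoN), a co-repressor of Smads and an early TGF-beta target, had 15058 and 14922 in Undiff and 5448 and 5457 in Day4, a log2 fold change of -1.46 ± 0.04 (adjusted p = 9.3e-13). Tgif2, a homeobox co-repressor of Smads, rose by 1.04 ± 0.05 (adjusted p = 6.0e-10), just over the threshold. Of its exon bases, 61.6% overlap 5430405H02Rik and Gm37790 on the opposite strand, so that the reads of Tgif2 alone are uncertain.

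The other target genes rose for 6 and fell for 2 of 9. Tgfbi, a matrix protein named for its induction by TGF-beta, had 330.3 and 254.9 in Undiff and 5601 and 5346 in Day4, a rise of 4.21 ± 0.08 (adjusted p = 4.3e-14). Ctgf, a matrix-associated protein that is also widely used as a TGF-beta target, fell. It had 3555 and 3749 in Undiff and 253.8 and 277.9 in Day4, a log2 fold change of -3.77 ± 0.07 (adjusted p = 2.2e-14). Of the targets best known from BMP signalling, Atoh8 had counts of 2 and 0 in Undiff and 240 and 329 in Day4, a ratio of 226 (interval 62.3 to 1871). Dlx5 had 1 and 1 in Undiff and 23 and 22 in Day4, a ratio of 17.9 (interval 4.67 to 152). Dlx3, of the same list, went the other way, with 99.0 and 83.8 normalized counts in Undiff and 48.1 and 59.1 in Day4. Its log2 fold change of -0.76 ± 0.20 (adjusted p = 0.0036) was below the fold threshold, so that Dlx3 was not a DEG. Targets of TGF-beta therefore had members in both directions, and Tgfb2, Tgfb3, Tgfbr1, Tgfbr2 and Tgfbr3 had rises.

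**Figure D4:**
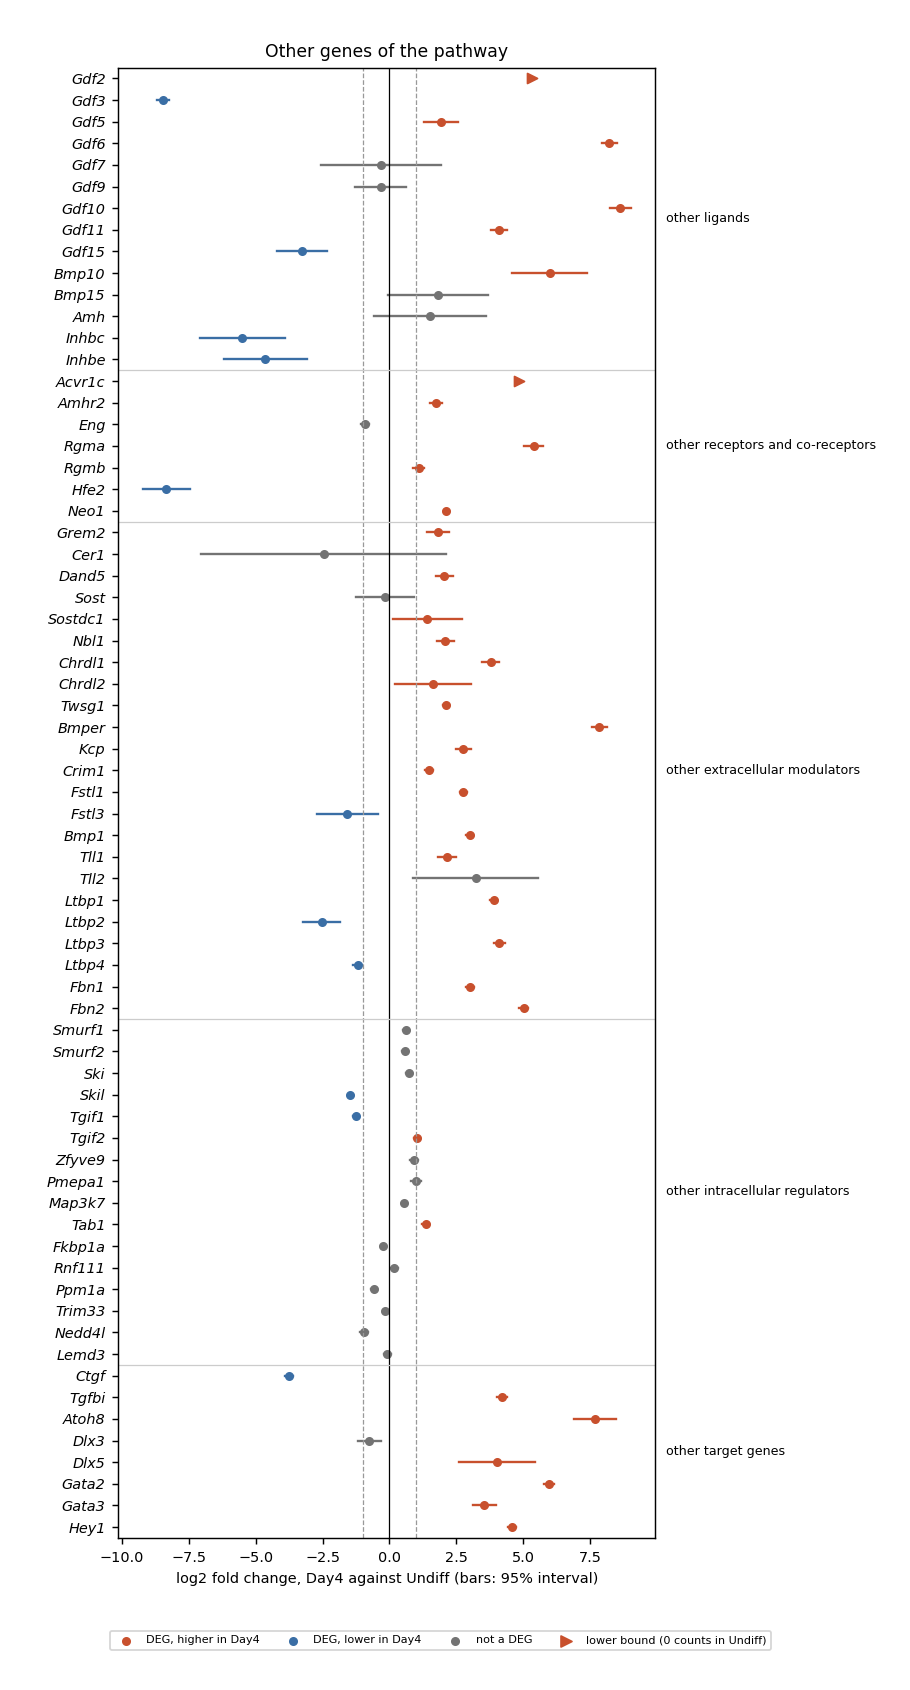
Log2 fold change, Day4 against Undiff, of 68 of the 69 other pathway genes with a count, with 95% intervals as bars and dashed lines at -1 and 1, in order of role, and triangles for the lower bounds of Gdf2 and Acvr1c. Extracellular modulators lie mostly to the right and intracellular regulators lie close to 0, with 4 DEGs of 16. Points of genes with 3 or fewer counts per library in a state (Gdf7, Bmp10, Bmp15, Amh, Inhbc, Inhbe, Hfe2, Cer1, Chrdl2, Tll2, Atoh8 and Dlx5) depend on the prior count of the fit.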

How the data were processed

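Illumina TruSeq libraries of the Undiff and Day4 states were analysed, with states and replicates taken from the sample labels. Per the labels and the paper, the authors used cutadapt for trimming, STAR 2.4.2a for alignment to mm10 and htseq-count for counting per gene symbol, and the deposited values are whole-number counts without normalization. Reads that align to several places were left out, which lowers near-identical genes. The methods name the TruSeq v2 kit, and the labels add a strand-specific kit. The methods name the Direct RNA samples as those counted by strand on genes and turn strand off for TruSeq on exons. The gene-level option for TruSeq is not named, so that antisense partners are uncertain. Summary lines that name no gene stayed out of library sizes. The share of counts assigned to no gene was 12.1% and 13.2% in Undiff and 7.5% and 7.74% in Day4, and that of ambiguous counts was 1.84% to 1.91%.

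The 44 genes and all lists were chosen with earlier results of these data known. The 19891 genes with a count entered edgeR 4.0.16 (R 4.3.3) with TMM factors, glmQLFit (legacy = FALSE) and glmQLFTest, with Benjamini-Hochberg adjustment. The thresholds are those of the paper. SE is the size of the log2 fold change divided by the square root of F. A fold against a state at 0 counts was computed against 3 counts per library, and for 1 to 3 counts the ratio of summed counts is given with an exact (Clopper-Pearson) 95% interval. The biological coefficient of variation between replicates was 3.66%. FPKM used exon lengths of GENCODE vM21 (GRCm38), which differs from the annotation counted on. Named other pathway genes were the DEG of highest mean count per role and direction, DEGs at the floor in 1 state, and Eng, Ltbp1, Ltbp2, Ltbp3 and Dlx3. Of the other pathway genes, 1 target gene is counted but not reported singly here. In simulated counts of 19510 genes, 200 of 200 genes changed by a log2 of 2 or 3 were recovered, with 0 false calls and a median error of 0.056 on the log2 scale. The changed genes were drawn above a minimum count, and the same dispersion was used for every gene. The simulation therefore checks the running of the fit, and calls near the fold threshold or at low counts were not tested by it. Alternatives were other normalizations, DESeq2 1.42.0, a low-count filter, thinning, a replicate block and leaving out each library. Long-read libraries and exon counts were not analysed here.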

Additional observations from a re-analysis of the deposited data

How the results depend on the processing

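Of 527 recomputed values of the 44 genes, 499 kept their direction and side of the thresholds, 18 newly passed (most of them by the adjusted p alone), 10 lost the call and 0 reversed. The number of DEGs among the 44 genes was 27 with the size factors of DESeq2, 29 with library totals, 26 with DESeq2 under the settings of the paper and without shrinkage, 27 after filterByExpr (which removed Bmp3), 25 after thinning to the smallest total and 26 to 28 when each library was left out. With library totals the median of all genes moved by 0.07, Bmpr1a (1.06), Acvr2a (1.01) and Id1 (1.03) became DEGs and Grem1 (-0.97) did not. By the adjusted p alone, 15044 of all genes, 39 of the 44 and 62 of the other pathway genes passed. All DEGs numbered 8521 in the main fit and 8306 to 8410 when each library was left out, and the other pathway genes numbered 48 and 45 to 48.

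Both states use the replicate numbers 1 and 2, but same-numbered libraries did not deviate together (correlation -0.01 over 16472 genes), so that the numbers are not shown to pair the samples. With the replicate block, 8515 of all genes, 26 of the 44 and 46 of the other pathway genes were DEGs, and among the 44 the call of Grem1 (-1) was lost. Bmp3, with 2 or fewer counts in every library, could not be placed in either direction at this depth.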
